A study of Sus scrofa with 8 samples.

Results

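The collagen genes of cultured pig skeletal muscle cells were compared between the undifferentiated and the differentiated state. Their members were taken by symbol: every row of the deposited gene table named COL, a type number, A and a chain number. This gave 34 rows and, with 1 row kept for each symbol, 33 of the 25285 genes of the table. There were 9 genes of fibrillar collagens, 5 of the basement membrane and 19 of other types. RNA had been sequenced from primary cells taken from pig skeletal muscle (strain LYD), which the extraction protocol calls MuSCs. The 4 groups were undifferentiated female, undifferentiated male, differentiated female and differentiated male cells, with 2 libraries in each and therefore 4 in each state. The labels name no further treatment, genotype or age, and give no medium or time in differentiation. Whether replicates came from separate animals is not stated, so the p-values below measure only the spread between these libraries, which may be technical.

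Collagens are secreted proteins in which 3 chains wind into a triple helix. The number after COL gives the type and the number after A gives the chain, so that types I, IV, V and VI need more than 1 gene. Types I, III, V and XI assemble into banded fibrils, type IV forms the sheet-like network of the basement membrane around each muscle fibre, and type VI forms beaded filaments between that membrane and the fibrils. The FACIT collagens, such as types XII, XIV and XIX, have interrupted helices, and several of them sit on the surface of fibrils. In muscle, fibroblasts of the interstitium are known as a main source of fibrillar collagen, and muscle cells also make some.

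Values are FPKM as the authors deposited them: the number of sequenced fragments of a gene, divided by transcript length and by library size. They are per length, so levels can be set beside each other between genes where a row covers its gene. How much of the gene a short row covers is unknown, as for COL1A1 (526 bp) and COL12A1 (3940 bp). Levels, sums and ratios with such rows hold for the row only. The depth in reads is unknown. Positions are on Sscrofa10.2. Wherever the 4 values of a state are listed, they stand in the order female replicate 1, female replicate 2, male replicate 1, male replicate 2, and ± gives the SD over the 4 libraries of a state. An undifferentiated library had 11940 to 12167 genes at 1 FPKM or more and a differentiated one had 12630 to 13074. Of the 8 muscle markers listed for the labelled cells, 6 were found. MYH3, the embryonic myosin heavy chain, ranged from 2.15 to 8.88 FPKM in undifferentiated and from 3490 to 5098 FPKM in differentiated libraries. MYOD1, a myogenic regulator, lay at 156 to 221 FPKM in undifferentiated cells and at 80.1 to 105 FPKM in differentiated ones, and PAX7 and MYF5 were not analysed here.

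Differentiated cells held more RNA of type I alpha 1, type III, type V alpha 3, type XI alpha 1 and several non-fibrillar collagens, and less of type I alpha 2, while neither type IV chain that was tested was called. The states were compared in limma on log2(FPKM + 1), over the 12963 genes whose mean over the 8 libraries reached 1 FPKM, and a Benjamini-Hochberg adjusted p under 0.05 was called. Log2 differences below are on this scale, which understates the change of low genes. "Rose" and "fell" are written only of called genes. Of the 33 collagen genes, 20 passed this filter. Of these 10 rose, against 18.0% of all tested genes, 1 fell, against 31.9%, and 9 were not called. The median log2 difference was 1.11 over the 20 and -0.18 over all tested genes. COL19A1 and COL7A1 were below 1 FPKM in every undifferentiated library and passed the filter through the differentiated ones, so the counts over the 20 are a description.

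The overlap of the libraries needs no model. For 8 of the 20 genes the lowest differentiated value exceeded the highest undifferentiated one, against 17.1% of all tested genes. They were COL3A1, COL5A3, COL11A1, COL12A1, COL9A3, COL23A1, COL19A1 and COL7A1. For none of the 20 did every differentiated value lie below, against 30.2% of all tested genes, and for the other 12 the states overlapped. In bulk samples, fewer cells of a type and less RNA per cell cannot be told apart. When each library was rescaled by the median ratio of its genes, the median of all genes moved by 0.20 on the log2 scale. Calls that rose then made up 52.44% of all calls, in place of 36.12%, and 12 collagen genes rose and 0 fell.

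**Figure D1:**
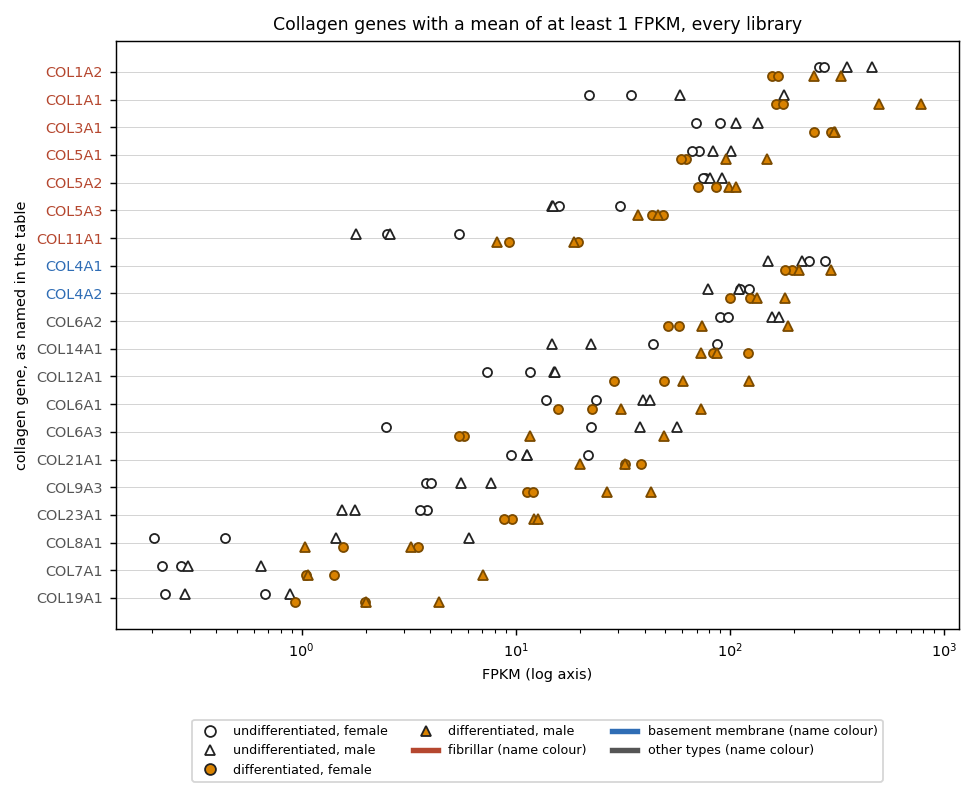
FPKM of the collagen genes that passed the filter in each of the 8 libraries, on a log axis, by class; open points are undifferentiated and filled points differentiated libraries, circles are females and triangles males, and the colour of a name gives the class. COL4A1 overlaps between the states, while COL3A1 lies at 69.8 to 136 FPKM in undifferentiated and at 247 to 312 FPKM in differentiated libraries.

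**Figure D2:**
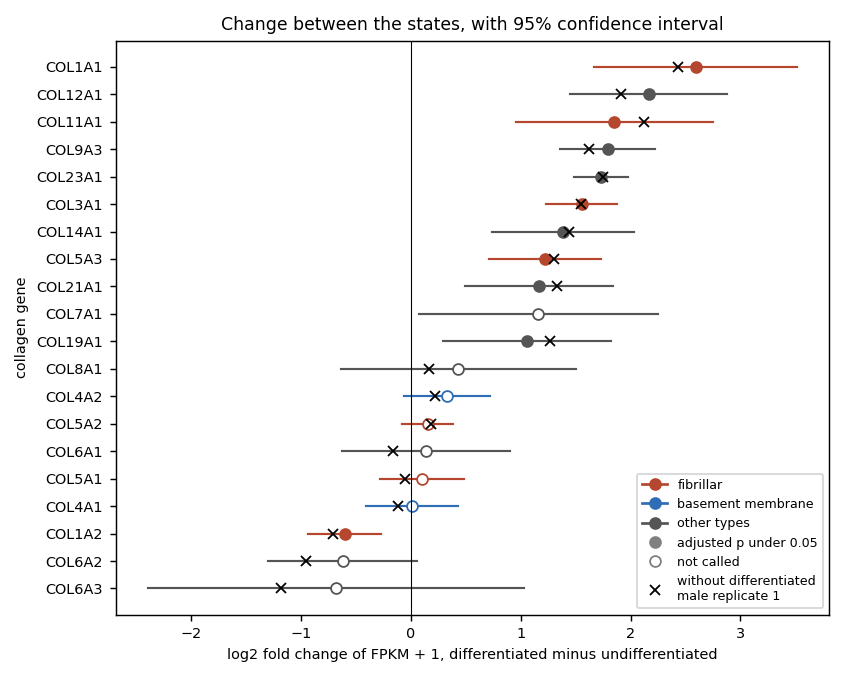
Log2 difference, differentiated minus undifferentiated, on the log2(FPKM + 1) scale for the 20 collagen genes that passed the filter, with the 95% interval from limma as a line; crosses give the value without differentiated male replicate 1 and colours the class. Filled points are the 10 genes that rose and the 1 that fell, and COL1A1 lies highest at 2.59.

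Among fibrillar collagens, 4 of 7 tested genes rose, 1 fell and 2 were not called, with a median log2 difference of 1.22. Over all tested genes 18.0% rose and 31.9% fell. Type I, the main fibril collagen of muscle connective tissue, is built from alpha 1 and alpha 2 chains, and its genes moved in opposite directions. COL1A1, the alpha 1 chain, had 34.7, 22.0, 179 and 58.5 FPKM in undifferentiated libraries and 165, 178, 783 and 499 FPKM in differentiated ones. Every differentiated library was above both undifferentiated libraries of its own sex, but undifferentiated male replicate 1 reached the level of the differentiated females, so the states overlapped. COL1A1 rose by 2.59 on the log2 scale (SE 0.378, limma adjusted p = 0.00232), or 6.03-fold. The row named COL1A1 (ENSSSCG00000017581) spans only 526 bp, on chromosome 12 from 26469602 to 26470127, so its level rests on a short stretch.

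COL1A2, the alpha 2 chain of type I (ENSSSCG00000015326, chromosome 9, 81357192 to 81393120), was the collagen gene with the highest mean. It had 261, 276, 461 and 351 FPKM in undifferentiated libraries and 158, 168, 330 and 248 FPKM in differentiated ones. Both differentiated libraries of each sex were below both undifferentiated libraries of that sex, while the differentiated males overlapped with the undifferentiated females. COL1A2 fell by 0.60 on the log2 scale (SE 0.137, limma adjusted p = 0.0126). With median-ratio scaling it was -0.38 with an adjusted p of 0.060, and was no longer called. A second row named COL1A2, on an unplaced scaffold and with a mean of 2.87 FPKM, was not a member, since the row with the higher mean stood for the symbol.

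COL1A1 and COL1A2 did not keep a fixed ratio. COL1A1 over COL1A2 was 0.133, 0.0798, 0.387 and 0.167 in undifferentiated libraries and 1.04, 1.06, 2.37 and 2.02 in differentiated ones. The states did not overlap, and the alpha 1 row went from the lower to the higher of the pair in every differentiated library. Near the short COL1A1 row, on the same strand, lie rows without a symbol, singled out after their values were seen. ENSSSCG00000021015 differed by 3.43 on the log2 scale (limma adjusted p = 0.0119) and ENSSSCG00000029074 by 2.95 (limma adjusted p = 0.00577). A further one, ENSSSCG00000027593, differed by 0.84 and was not called (limma adjusted p = 0.0876). They carry no name, and are not counted as collagen here.

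COL3A1 encodes type III collagen, which forms thin fibrils, often together with type I. It lies on chromosome 15 from 104067018 to 104105776 and had 69.8, 89.6, 136 and 107 FPKM in undifferentiated libraries and 296, 247, 312 and 307 FPKM in differentiated ones. The 4 differentiated values lay close together and all above the undifferentiated ones. COL3A1 rose by 1.56 on the log2 scale (SE 0.132, limma adjusted p = 0.000343), or 2.94-fold. COL3A1 over COL1A2 went from between 0.267 and 0.325 in undifferentiated libraries to between 0.945 and 1.87 in differentiated ones.

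Type V collagen is built into type I fibrils and is known to limit their diameter. COL5A1, its alpha 1 chain, had 71.8, 66.5, 102 and 83.3 FPKM in undifferentiated libraries and 62.8, 59.5, 149 and 96.6 FPKM in differentiated ones. Its differentiated values spread on both sides of the undifferentiated ones, and the difference of 0.10 on the log2 scale (95% interval -0.28 to 0.48) was not called. COL5A2, the alpha 2 chain, ranged from 74.9 to 92.0 FPKM and from 71.2 to 107 FPKM, with a log2 difference of 0.15 (95% interval -0.08 to 0.39), also not called. COL5A3, the alpha 3 chain, ranged from 14.7 to 30.8 FPKM in undifferentiated and from 37.2 to 48.7 FPKM in differentiated libraries. COL5A3 rose by 1.22 on the log2 scale (SE 0.209, limma adjusted p = 0.00428), so of the 3 type V genes it alone was called in the deposited scaling; with median-ratio scaling COL5A2 rose too (limma adjusted p = 0.0112).

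COL11A1 encodes a chain of type XI collagen, which is related to type V and best known from cartilage fibrils. It had 5.42, 2.50, 2.60 and 1.79 FPKM in undifferentiated libraries and 19.6, 9.29, 8.18 and 18.7 FPKM in differentiated ones. The states did not overlap, and COL11A1 rose by 1.85 on the log2 scale (SE 0.368, limma adjusted p = 0.00768), or 3.61-fold. Its partner COL11A2 was at or below 0.226 FPKM, and COL2A1, the fibrillar collagen of cartilage, was listed at 0 in all 8 libraries.

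Type IV is the collagen of the basement membrane, and in most tissues its molecule holds alpha 1 and alpha 2 chains. COL4A1 and COL4A2 were the tested genes of this class, and neither was called. COL4A1 had 234, 280, 217 and 151 FPKM in undifferentiated libraries and 194, 181, 297 and 210 FPKM in differentiated ones. The means were 220 ± 53.2 and 221 ± 52.3 FPKM (SD, n = 4 libraries each), and the log2 difference was 0.01 with a 95% interval from -0.41 to 0.43. COL4A2 had 123, 112, 110 and 79.3 FPKM in undifferentiated libraries and 124, 99.8, 181 and 134 FPKM in differentiated ones. The states overlapped, and its log2 difference was 0.33 with a 95% interval from -0.07 to 0.72 (limma adjusted p = 0.140). COL4A2 was called with median-ratio scaling (log2 difference 0.55, limma adjusted p = 0.0229). Both genes were among the most abundant collagens in either state.

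COL4A1 and COL4A2 lie on chromosome 11 on opposite strands with a gap of 181153 bp on the build of the table. COL4A1 over COL4A2 was 1.89, 2.51, 1.97 and 1.91 in undifferentiated libraries and 1.57, 1.81, 1.64 and 1.57 in differentiated ones. The ratio was thus lower in all 4 differentiated libraries, though neither gene was called. The chains found in specialised basement membranes were low throughout. COL4A4 had 0, 0.0679, 0.0782 and 0.046 FPKM in undifferentiated and 0.0386, 0.0466, 0 and 0.0599 FPKM in differentiated libraries. COL4A6 had 0, 0.168, 0.146 and 0.227 FPKM in undifferentiated libraries, against 0.058 FPKM in differentiated female replicate 2 and 0 in the other differentiated ones. COL4A3 did not exceed 0.0441 FPKM.

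A row outside the naming rule belongs beside these genes, and was chosen after its values were seen. The identifier table names 6 rows as collagens that carry no such symbol in the deposited table. Of these COL15A1, a collagen that links basement membranes to the matrix beneath, went from 57.7 ± 7.21 FPKM in undifferentiated to 12.6 ± 4.66 FPKM in differentiated libraries (SD, n = 4 each). It fell by 2.16 on the log2 scale (limma adjusted p = 0.000394). COL16A1, a FACIT collagen, rose by 1.75 on the log2 scale (limma adjusted p = 0.0183). It had 0.372, 0.385, 1.79 and 0.226 FPKM in undifferentiated libraries and 2.19, 2.65, 13.9 and 3.74 FPKM in differentiated ones. Differentiated male replicate 1 was thus far above the rest. The other 4, COL27A1, COL17A1, COL4A5 and COL22A1, were below the filter.

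**Figure D3:**
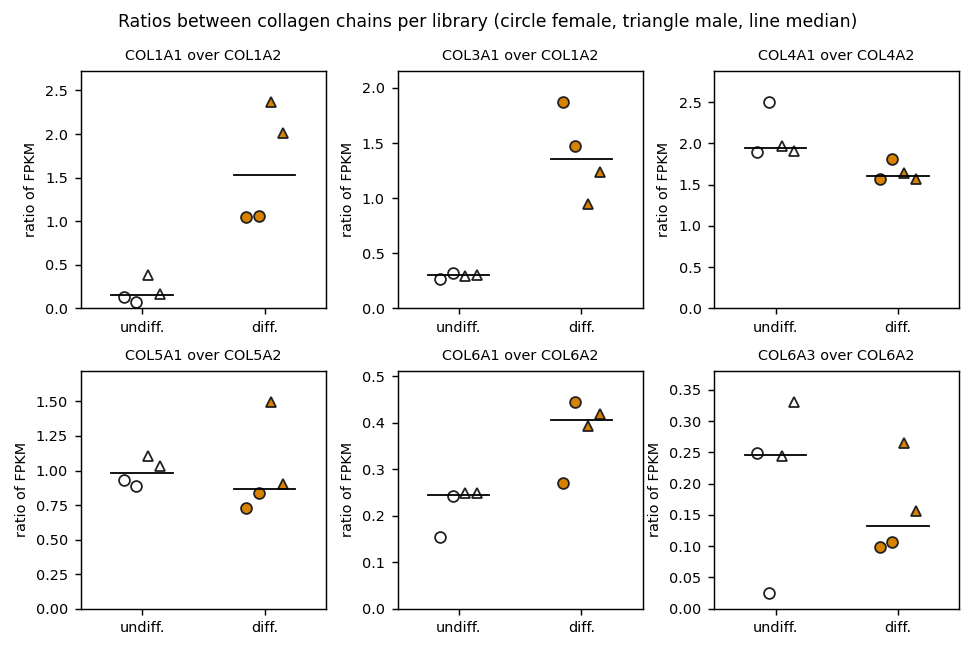
Ratios of FPKM between collagen genes in each of the 8 libraries, on linear axes from 0; open points are undifferentiated and filled points differentiated libraries, circles females, triangles males, and lines medians. COL1A1 over COL1A2 lies between 0.0798 and 0.387 in undifferentiated and between 1.04 and 2.37 in differentiated libraries, while COL5A1 over COL5A2 overlaps between the states.

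Type VI collagen forms beaded filaments that tie the basement membrane of muscle fibres to the interstitium. None of its 3 tested genes was called, and all 3 overlapped between the states. COL6A2 had 89.9, 98.3, 157 and 171 FPKM in undifferentiated libraries and 58.2, 51.3, 186 and 74.2 FPKM in differentiated ones. Differentiated male replicate 1 was the highest of all 8, and the other 3 differentiated libraries were below all undifferentiated ones. The log2 difference was -0.62 with a 95% interval from -1.30 to 0.06 (limma adjusted p = 0.112). Without differentiated male replicate 1 it was -0.95 (limma adjusted p = 0.00202), and COL6A2 was called as lower.

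COL6A1, on an unplaced scaffold, had 13.9, 23.9, 39.2 and 42.4 FPKM in undifferentiated libraries and 15.8, 22.8, 73.2 and 31.0 FPKM in differentiated ones. Its log2 difference was 0.14 (95% interval -0.63 to 0.90), and the male libraries were above the female ones in both states. COL6A3, whose long chain has many von Willebrand factor A domains, spread most among the type VI genes, from 2.48 to 56.4 FPKM in undifferentiated and from 5.47 to 49.5 FPKM in differentiated libraries. Undifferentiated female replicate 2 held the lowest value and differentiated male replicate 1 the highest of its state. The log2 difference of -0.68 had a 95% interval from -2.39 to 1.03. COL6A1 over COL6A2 was between 0.155 and 0.249 in undifferentiated and between 0.271 and 0.444 in differentiated libraries, with no overlap. COL6A3 over COL6A2 overlapped, at 0.0252 to 0.331 and 0.0987 to 0.266.

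Of the 11 tested genes of the other types 6 rose and 0 fell, against 18.0% and 31.9% of all tested genes. The FACIT collagens held 5 of the 6 that rose, with the row listed as COL9A3 among them. COL14A1, type XIV, had 43.6, 87.0, 22.4 and 14.9 FPKM in undifferentiated libraries and 121, 83.5, 73.6 and 86.7 FPKM in differentiated ones. It was the most abundant of them, and undifferentiated female replicate 2 lay within the differentiated range. COL14A1 rose by 1.38 on the log2 scale (SE 0.266, limma adjusted p = 0.00676). COL21A1, type XXI, ranged from 9.52 to 21.7 FPKM in undifferentiated and from 20.0 to 38.3 FPKM in differentiated libraries, a narrow overlap. It rose by 1.17 (SE 0.276, limma adjusted p = 0.0148), and was no longer called without differentiated female replicate 1 (adjusted p = 0.0502).

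COL12A1, type XII, is known from tendon and from the connective tissue of muscle. It had 11.7, 7.34, 15.1 and 15.3 FPKM in undifferentiated libraries and 28.7, 49.2, 123 and 60.5 FPKM in differentiated ones. Each differentiated value was above every undifferentiated one, and COL12A1 rose by 2.17 on the log2 scale (SE 0.293, limma adjusted p = 0.00176), or 4.49-fold. The row listed as COL9A3 had 3.81, 4.02, 7.66 and 5.54 FPKM in undifferentiated libraries and 11.3, 12.1, 42.9 and 26.8 FPKM in differentiated ones. It rose by 1.79 (SE 0.177, limma adjusted p = 0.000576).

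The name COL9A3, a chain of the cartilage collagen type IX, is uncertain for that row. The identifier table names the same identifier, ENSSSCG00000004484, COL12A1. On the table's build the row spans chromosome 1 from 101726688 to 101890065, and begins 28346 bp after the row named COL12A1, on the same strand and near COX7A2 and CD109. RefSeq (Sscrofa11.1) has COL12A1 between COX7A2 and CD109 on chromosome 1, and COL9A3 between OGFR and TCFL5 on chromosome 17. COL12A1 over COL9A3 overlapped between the states, at 1.83 to 3.08 in undifferentiated and 2.26 to 4.08 in differentiated libraries. With both rows counted once, 9 collagen genes rose. The counts of FACIT genes that rose and of genes without overlap between the states are then lower as well. The other type IX genes, COL9A1 and COL9A2, did not exceed 0.0908 and 0.323 FPKM.

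COL23A1, type XXIII, is a collagen held in the cell membrane by a transmembrane stretch. It had 3.85, 3.56, 1.78 and 1.54 FPKM in undifferentiated libraries and 9.61, 8.84, 12.2 and 12.7 FPKM in differentiated ones. Replicates lay close together, and COL23A1 rose by 1.73 on the log2 scale with the smallest SE among the genes that rose (0.101, limma adjusted p = 9.55e-05). COL19A1, a FACIT collagen, ranged from 0.231 to 0.880 FPKM in undifferentiated and from 0.929 to 4.39 FPKM in differentiated libraries. It rose by 1.06 (SE 0.313, limma adjusted p = 0.0325). That call was lost without undifferentiated female replicate 1 (adjusted p = 0.0936), undifferentiated female replicate 2 (0.0546), undifferentiated male replicate 1 (0.0909) or differentiated female replicate 2 (0.0867). Without differentiated male replicate 2 it was below the filter.

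COL7A1 forms the anchoring fibrils of skin, and COL8A1 encodes a short-chain network collagen known from vessels. COL7A1 ranged from 0.223 to 0.646 FPKM in undifferentiated and from 1.05 to 7.05 FPKM in differentiated libraries. Its states did not overlap, but 1 library, differentiated male replicate 1, was far above the rest, and the log2 difference of 1.16 (95% interval 0.07 to 2.25) was not called (limma adjusted p = 0.0732). Without differentiated male replicate 1 COL7A1 was below the filter, and without differentiated male replicate 2 it was called (adjusted p = 0.00476). COL8A1 ranged from 0.204 to 6.07 FPKM and from 1.04 to 3.49 FPKM, and its difference of 0.43 (95% interval -0.64 to 1.51) was not called.

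Of the 33 genes, 13 did not pass the filter. These were COL2A1, COL11A2, COL4A3, COL4A4, COL4A6, COL6A5, COL8A2, COL9A1, COL9A2, COL10A1, COL13A1, COL26A1 and COL28A1. The closest to the filter were COL8A2, partner of COL8A1, with 0 to 0.402 FPKM in undifferentiated and 0.361 to 1.94 FPKM in differentiated libraries, and COL10A1, the collagen of hypertrophic cartilage, with a mean of 0.506 FPKM over the 8 libraries. Just inside it were COL19A1 with a mean of 1.42 FPKM and COL7A1 with 1.50 FPKM. COL26A1 reached 1.34 FPKM in differentiated male replicate 1 and was at or below 0.362 FPKM elsewhere. With no filter, no further collagen gene was called.

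The order of the fibrillar genes changed between the states. By mean, undifferentiated libraries had COL1A2 (337 ± 91.3 FPKM) first, followed by COL3A1 (101 ± 28.2), COL5A2 (81.1 ± 7.64), COL5A1 (80.8 ± 15.6) and COL1A1 (73.5 ± 71.7). Those after COL1A2 lay within each other's spread. Differentiated libraries had COL1A1 (406 ± 295 FPKM), COL3A1 (290 ± 29.4) and COL1A2 (226 ± 80.1) first, whose ranges overlapped, and then COL5A1 (91.9 ± 41.4) and COL5A2 (91.0 ± 15.9). The ± is the SD of 4 libraries in each case, and the place of COL1A1 is that of its short row of 526 bp.

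Summed over the 33 genes, collagen reached 1093, 1205, 1616 and 1250 FPKM in undifferentiated libraries and 1449, 1332, 2792 and 2013 FPKM in differentiated ones. The states overlapped, since undifferentiated male replicate 1 was above both differentiated females. Without the short COL1A1 row the sums were 1059 to 1438 FPKM and 1154 to 2009 FPKM. Basement membrane genes held 32.7%, 32.5%, 20.3% and 18.5% of the whole sum in undifferentiated libraries and 22.0%, 21.1%, 17.1% and 17.1% in differentiated ones. Within each sex this share was lower in the differentiated libraries. With the COL1A1 row left out of the sum, that held in females but not in males. The males then had 328 of 1438 and 231 of 1192 FPKM when undifferentiated, and 478 of 2009 and 344 of 1513 FPKM when differentiated. The fibrillar share, with the COL1A1 row in it, was between 46.7% and 61.1% in undifferentiated and between 57.6% and 65.7% in differentiated libraries.

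Neighbouring collagen genes did not always move together. COL3A1 and COL5A2 lie on chromosome 15 on opposite strands with a gap of 17105 bp, and the first rose 2.94-fold while the second was not called in the deposited scaling. COL19A1 lies 122546 bp from COL9A1 on chromosome 1, and COL9A1 was listed at 0 in 6 libraries. COL4A4 and COL4A3, a pair on chromosome 15 with a gap of 123221 bp, were both below the filter.

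Differentiated male replicate 1 stood apart. It was the highest of its state for 12 of the 20 tested collagen genes (60.0%), against 29.72% of all tested genes, and lay a median of 0.61 on the log2 scale above the mean of the other 3. The pattern over genes was not uniform, since for COL5A3, COL11A1, COL14A1 and COL21A1 it was the lowest of the 4 differentiated libraries. Without it 19 collagen genes were tested, of which the same 10 rose and COL1A2 and COL6A2 fell, against 16.9% and 29.5% of all tested genes.

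Several fibroblast markers were also high in this library. Of 10 markers 9 were found and 5 had a mean of at least 1 FPKM. Their sum was 2.99, 2.80, 13.7 and 13.8 FPKM in undifferentiated libraries and 7.40, 9.58, 44.4 and 16.6 FPKM in differentiated ones. Male libraries were higher than female ones in both states, and differentiated male replicate 1 was the highest of the 8. Undifferentiated male replicate 1 was the highest of its state for 5 of the 9 markers, against 30.44% of all tested genes. The 5 include PI16, which was at 0 in every undifferentiated library. Differentiated male replicate 1 was the highest of its state for 6 of the 9, against 29.72% of all tested genes. It had 21.3 FPKM of DCN, 6.37 of LUM, 4.50 of PDGFRA and 3.41 of DPT. For the other 3 it was not: PRRX1 had 3.88 FPKM against 4.35 in male replicate 2, CD34 had 0.189 against 0.460 in female replicate 1, and PI16 was at 0 against 0.653 in female replicate 1 and 0.703 in male replicate 2. Of the 5 tested markers only FAP was called between the states (log2 difference 1.00, limma adjusted p = 0.0374). Over all tested genes 18.0% rose and 31.9% fell. FAP was below 1 FPKM in every undifferentiated library. Its call was lost with quantile normalization (adjusted p = 0.104) and in 6 of the 8 fits with 1 library left out, in 1 of which, without differentiated male replicate 1, it was under the filter. The part of these markers in the collagen results was not tested.

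**Figure D4:**
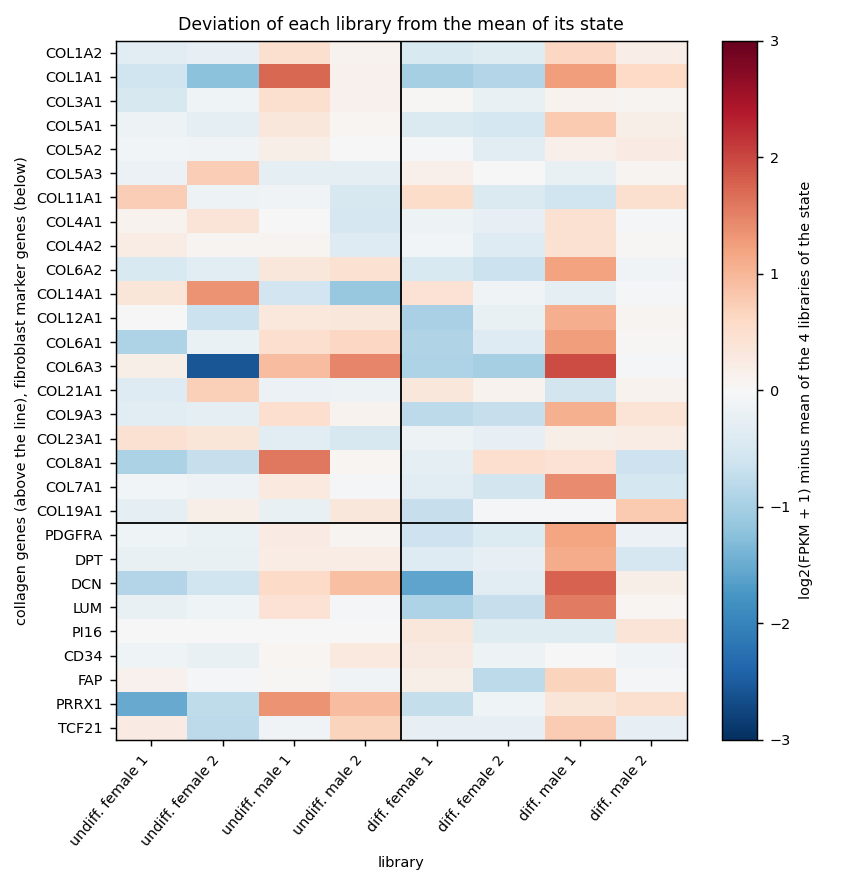
Deviation of log2(FPKM + 1) in each library (columns) from the mean of the 4 libraries of its state, red above and blue below, for the 20 tested collagen genes and, under the line, the 9 fibroblast markers found. The column of differentiated male replicate 1 is red for many collagen genes and for DCN, LUM, PDGFRA and DPT, and COL6A3 is darkest blue in undifferentiated female replicate 2.

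Markers of other cell types gave the following. Of the smooth muscle and pericyte list all 6 were found, with sums of 17.5 to 40.1 FPKM in undifferentiated and 1020 to 1220 FPKM in differentiated libraries, in the latter nearly all of it ACTA2. The 4 that were tested all rose, and over all tested genes 18.0% rose and 31.9% fell. ACTA2 rose by 5.94 on the log2 scale (limma adjusted p = 6.95e-05), CNN1 by 2.03 (0.000421), CSPG4 by 1.49 (0.0132) and PDGFRB by 0.95 (0.0431). CNN1 went from a mean of 0.247 to 4.18 FPKM and CSPG4 from 0.617 to 3.93 FPKM, while the call of PDGFRB was lost in 6 of the 8 fits with 1 library left out. CNN1 was below 1 FPKM in every undifferentiated library and passed the filter through the differentiated ones. MYH11, which defines mature smooth muscle, stayed at or below 0.0931 FPKM. PDGFRB was at 46.7 FPKM in differentiated male replicate 1 against 9.58 to 18.1 FPKM in the other differentiated libraries. Of 5 tenocyte markers 4 were found, summing to 11.7 to 19.7 FPKM in undifferentiated and 7.38 to 21.7 FPKM in differentiated libraries, with TNMD at 0 in 7 libraries. The 7 cartilage and bone markers summed to 39.0 to 62.2 FPKM and 16.3 to 21.8 FPKM, mainly RUNX2 and SOX9. The RUNX2 row spans only 438 bp, so its values hold for that row only. Of the 4 markers tested, RUNX2, SOX9 and BGLAP fell, against 31.9% of all tested genes, and COMP rose, against 18.0%. COMP rose by 1.50 (limma adjusted p = 0.0156), from a mean of 0.238 to 2.95 FPKM. With quantile normalization COMP was not called (limma adjusted p = 0.0585). COMP too was below 1 FPKM in every undifferentiated library and passed the filter through the differentiated ones. BGLAP was below 1 FPKM in every differentiated library and passed the filter through the undifferentiated ones. SP7 went from 0 in all undifferentiated libraries to between 0.263 and 0.685 FPKM, and ACAN did not exceed 0.327 FPKM.

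In each of 3 remaining lists 1 marker was tested, and over all tested genes 18.0% rose and 31.9% fell. Endothelial markers, 4 of 5 found, summed to 2.25 to 6.31 FPKM and 2.56 to 7.53 FPKM, with KDR at or below 0.0878 FPKM. PECAM1, the 1 tested, was not called (limma adjusted p = 0.663). The 4 immune markers summed to 11.9 to 17.0 FPKM and 2.53 to 3.69 FPKM, mainly CD14, with PTPRC at or below 0.199 FPKM. CD14, the 1 tested, fell by 2.24 on the log2 scale (limma adjusted p = 9.12e-05). The 4 Schwann cell markers summed to 4.30 to 7.21 FPKM and 2.34 to 3.68 FPKM. S100B, the 1 tested, fell by 1.02 (limma adjusted p = 0.0187), a call lost in 3 of the 8 fits with 1 library left out. Of 4 adipocyte markers 2 were found, at 0 in all undifferentiated libraries and summing to 0.193 to 1.69 FPKM in differentiated ones. The part of these cell types in the collagen results was not tested either.

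Between the sexes no collagen gene was called by limma, but many lay lower in female libraries. Averaged over the states, 11 of the 20 had an unadjusted p under 0.05, of which 10 were lower in females and 1, COL14A1, was higher. The smallest adjusted p was 0.259. Over all tested genes 0.0849% were called, and 9.728% had an unadjusted p under 0.05. The median difference, female minus male, was -0.49 on the log2 scale over the 20 genes and -0.03 over all tested genes. For COL1A1 this difference was -1.86 (SE 0.378, limma adjusted p = 0.326) and for COL6A3 it was -2.16 (SE 0.702, limma adjusted p = 0.469).

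The difference of the state effect between the sexes was tested as an interaction, with 0 collagen genes called by limma and 0.0231% of all tested genes. An unadjusted p under 0.05 was found for 4 of the 20, against 6.033% of all tested genes, and the smallest adjusted p was 0.691. That was COL23A1, with log2 differences of 1.12 in females and 2.34 in males. COL14A1 had 0.70 in females and 2.07 in males, COL4A1 had -0.44 and 0.46, and COL4A2 had -0.08 and 0.73. In each of the 4 the value was higher in males, and none of these differences passed the adjustment.

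Collagen chains are hydroxylated and folded in the endoplasmic reticulum, trimmed by proteases outside the cell and then crosslinked. Of the 27 genes found for these steps, 23 were tested, of which 3 rose, 14 fell and 6 were not called, beside 18.0% of all tested genes that rose and 31.9% that fell. The median log2 difference was -0.73, and -0.18 over all tested genes. PLOD1, a lysyl hydroxylase, went from 105 ± 6.47 to 18.2 ± 1.33 FPKM (SD, n = 4 libraries each) and fell by 2.47 on the log2 scale (SE 0.0850, limma adjusted p = 1.43e-05). BMP1, which cleaves the C-propeptide of fibrillar procollagens, went from 95.7 ± 16.5 to 21.2 ± 4.08 FPKM and fell by 2.12 (limma adjusted p = 0.000406). PCOLCE, a secreted enhancer of that cleavage, had 3.10, 5.26, 17.8 and 3.24 FPKM in undifferentiated libraries and 75.7, 47.7, 90.5 and 46.4 FPKM in differentiated ones. Its states did not overlap, and it rose by 3.24 (SE 0.514, limma adjusted p = 0.00322). P3H2, a prolyl 3-hydroxylase, rose by 0.74 (limma adjusted p = 0.0185), a call lost in 4 of the 8 fits with 1 library left out.

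Members of 1 step did not all move one way. CRTAP, part of the prolyl 3-hydroxylation complex, fell by 1.97 (limma adjusted p = 0.000744), P4HA1, a subunit of prolyl 4-hydroxylase, by 1.84 (0.000489), and LOX, a crosslinking lysyl oxidase, by 1.52 (0.000588). LOXL1, another lysyl oxidase, rose by 0.63 (limma adjusted p = 0.0231), a call lost in 5 of the 8 fits with 1 library left out, and LOXL2 had a log2 difference of 0.73 and was not called (limma adjusted p = 0.156). P4HA3, another prolyl 4-hydroxylase subunit, had 0.38 and was not called (limma adjusted p = 0.147). SERPINH1, the collagen chaperone, ranged from 244 to 323 FPKM in undifferentiated and from 134 to 309 FPKM in differentiated libraries and was not called (log2 difference -0.49, limma adjusted p = 0.0602). CRTAP, P4HA1, P4HA3, LOX, LOXL1, LOXL2 and SERPINH1 were named outside the rule, after their values were seen.

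Among collagen receptors 8 were found and 7 tested, of which 2 rose, 3 fell and 2 were not called. That stands beside 18.0% of all tested genes that rose and 31.9% that fell. The integrin alpha chains ITGA1 and ITGA2 rose by 1.55 (limma adjusted p = 0.00450) and 1.14 (limma adjusted p = 0.00190) on the log2 scale. They went from 0.289 ± 0.293 and 1.65 ± 0.287 FPKM to 2.81 ± 0.955 and 4.83 ± 0.756 FPKM. ITGA1 was below 1 FPKM in every undifferentiated library and passed the filter through the differentiated ones. ITGA10, another collagen-binding alpha chain, fell by 2.37 (limma adjusted p = 0.00246), from 15.6 ± 5.12 to 2.30 ± 1.28 FPKM. DDR2, a receptor tyrosine kinase for fibrillar collagen, fell by 0.57 (limma adjusted p = 0.0104), and ITGB1, the shared beta chain, by 0.46 (limma adjusted p = 0.0259). With median-ratio scaling neither was called (adjusted p = 0.0574 for DDR2 and 0.183 for ITGB1), and the ITGB1 call was also lost in 5 of the 8 fits with 1 library left out. MRC2, an uptake receptor for collagen, held 130536 FPKM in differentiated male replicate 1 against 3.67 to 11.1 FPKM elsewhere, and was not called.

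The 10 tested partners of type IV collagen in the basement membrane were called in the deposited scaling, 6 of them higher and 4 lower. Over all tested genes 18.0% rose and 31.9% fell. With median-ratio scaling 9 of the partners were called. PXDN was not (limma adjusted p = 0.175), nor with quantile normalization (limma adjusted p = 0.0677). NID1 was not called with a block for sex and replicate number (limma adjusted p = 0.0833). With 1 library left out, the call of NID1 was lost in 6 of the 8 fits and that of PXDN in 4. LAMA4, a laminin alpha chain, rose by 2.84 (limma adjusted p = 0.000624), from 1.66 ± 0.956 to 18.1 ± 6.02 FPKM. NID2, which bridges laminin and type IV collagen, rose by 2.16 (limma adjusted p = 0.00636). LAMB1, a laminin beta chain, fell by 1.36 (limma adjusted p = 0.000667), from 172 ± 25.2 to 67.1 ± 12.9 FPKM. AGRN, the proteoglycan agrin, fell by 1.27 (limma adjusted p = 0.0119).

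Of the proteoglycans and glycoproteins of fibrils 11 of 13 were tested, of which 2 rose, 2 fell and 7 were not called. PRELP and POSTN rose by 1.90 (limma adjusted p = 0.00230) and 1.46 (limma adjusted p = 0.0236), and both were below 1 FPKM in every undifferentiated library, so that they passed the filter through the differentiated ones. The POSTN call was lost in 7 of the 8 fits with 1 library left out, in 1 of which, without differentiated male replicate 1 (5.60 FPKM), it was under the filter. FN1, fibronectin, fell by 2.22 (limma adjusted p = 0.00463), from 509 ± 180 to 125 ± 99.3 FPKM. THBS1, thrombospondin 1, fell by 0.80 (limma adjusted p = 0.00874). The list shares DCN and LUM with the fibroblast markers, and its median log2 difference was 0.33 over the 11 genes. Without differentiated male replicate 1, LUM and POSTN were under the filter, and over the other 9 genes the median was -0.08, against 0.08 for the same 9 with all libraries. Of the degrading enzymes 3 of 7 were tested: CTSK, cathepsin K, rose by 0.51 (limma adjusted p = 0.0184; the call was lost in 3 of the 8 fits with 1 library left out), and MMP14, a membrane-bound collagenase, fell by 0.75 (limma adjusted p = 0.00462). Over the 23, 7, 10, 11 and 3 tested genes of the 5 lists, 14 rose and 24 fell, against 18.0% and 31.9% of all tested genes.

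**Figure D5:**
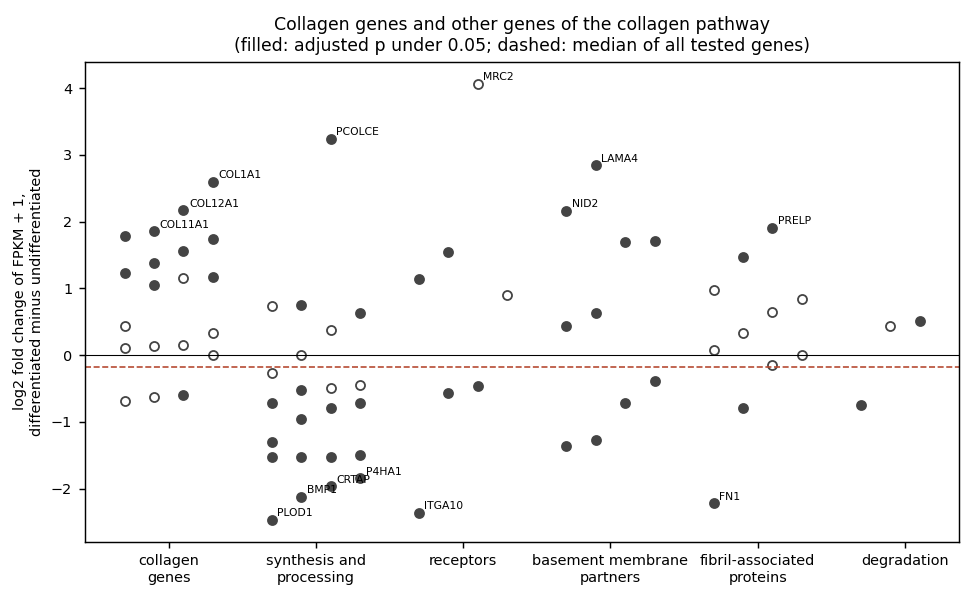
Log2 difference, differentiated minus undifferentiated, on the log2(FPKM + 1) scale for the tested collagen genes and the tested genes of the 5 lists around them; filled points were called, the dashed line is the median of all tested genes (-0.18), and names mark the largest differences. In the list for synthesis and processing 14 of 23 genes fell, and PCOLCE lies highest at 3.24.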

How the data were processed

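RNA of 8 libraries, 2 per group, had been read as 100-bp paired ends. Per the labels the kit was a stranded one for small amounts of total RNA, although polyA RNA stands as the molecule. The FPKM were made by the authors on Sscrofa10.2 with TopHat2 2.0.12.1, Cufflinks 2.2.1 and cutadapt 1.6, per the submitters' processing notes; settings and annotation are not given in the sources used here. Whole reads were not recovered, so no count test was used, depth is unknown and no counting interval is given.

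Members and gene lists were chosen with earlier results of these data known. Of the 33 members 25 were in the identifier table, 24 under the same name. R 4.3.3 with limma 3.58.1 was run on log2(FPKM + 1) for genes whose mean reached 1 FPKM, with 1 mean per group, no block and a mean-variance trend (4 residual and 2.09 prior degrees of freedom). Tests were two-sided, and Benjamini-Hochberg adjustment ran over the 12963 genes. The fit was tested on simulated data. No list test was made.

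Given in every library were, per class, the 4 genes with the highest mean and the 3 largest called rises and falls; other members are given by range or count. Of each list around collagen the 2 largest called rises and falls are named. Same-numbered libraries of the 2 states did not deviate together (correlation over 12963 genes 0.0684 in females, -0.0264 in males), so the numbers were not taken to pair them. Alternatives were another pseudocount, filter, scaling, length minimum and trend setting, a block, and each library left out. Sequences and protein features were not analysed here.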

Additional observations from a re-analysis of the deposited data

Results flagged for a closer look

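In 40 groups, the 4 undifferentiated and the 4 differentiated libraries of the 20 tested collagen genes, 2 held a library far from the others by Dixon's criterion on the log2(FPKM + 1) scale, and chance flags about 1 in 20 groups. COL5A3 was at 30.8 FPKM in undifferentiated female replicate 2, against 14.7 to 16.0 FPKM in the other undifferentiated libraries. COL7A1 was at 7.05 FPKM in differentiated male replicate 1, against 1.05 to 1.42 FPKM in the other differentiated libraries. On FPKM itself 6 of the 40 groups held such a library: these 2, COL6A2 (186.2 FPKM) and COL6A3 (49.5 FPKM) in differentiated male replicate 1, COL21A1 in undifferentiated female replicate 2 (21.7 FPKM) and COL7A1 in undifferentiated male replicate 1 (0.646 FPKM).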

How the results depend on the processing

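The count of collagen genes that rose, 10, lay between 9 and 12 over the alternatives, and between 9 and 10 with each library left out. The count that fell, 1, was 0 with median-ratio scaling. It was 2 with the rows that only the identifier table names as collagens, an alternative chosen after seeing the data that adds COL15A1, and 1 to 2 with each library left out. The count that differ between the sexes, 0, was 0 to 1 with each library left out, COL6A2 being called without differentiated male replicate 2 (female minus male -1.27, limma adjusted p = 0.0291). The genes around collagen that rose, 14, numbered 9 to 15 with each library left out (9 without undifferentiated male replicate 1), 17 with median-ratio scaling, and 16 with no filter or with a minimum span of 300 bp. Those that fell, 24, numbered 22 to 26 with each library left out and 21 with median-ratio scaling. With a replicate block for sex and number, 11 collagen genes rose and 1 fell; the block added COL4A2 (limma adjusted p = 0.0369) and changed no other call among them.

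Of the single genes, 277 values over the alternatives were on the same side of the threshold with the same sign, 6 became called, 7 lost the call and 8 changed sign, all in genes that were not called. With each library left out, the log2 difference between the states ran from -0.122 to 0.138 for COL4A1, from -0.0532 to 0.256 for COL5A1, from -0.164 to 0.442 for COL6A1 and from -1.37 to 0.00588 for COL6A3. With quantile normalization COL19A1 was not called (adjusted p = 0.0795), and with a pseudocount of 0.1 FPKM COL7A1 was (adjusted p = 0.0375). The cause of these changes was not tested. Where 1 library is left out, the lone library of its group is assumed to vary like the other groups.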
